A study of Mus musculus with 6 samples.

Results

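The motile cilia genes are a list of 40 genes for the machinery that lets a cilium beat, chosen by name from knowledge of ciliated airway cells. Of these, 37 are among the 24661 genes in the files, and Deup1, Dnah3 and Dnah12 are not listed there under those names. RNA from the whole olfactory mucosa was sequenced in 3 wild-type and 3 RTP1,2DKO mice, all C57BL/6 by their labels and 21 days old. RTP1,2DKO mice lack Rtp1 and Rtp2 in every cell (genotype RTP1 and RTP2 -/-), 2 genes whose proteins carry odorant receptors to the cell surface. The alleles were made in ES cells of mixed 129/B6 origin and crossed back to C57BL/6, and according to the methods the mice were littermates matched for sex. In the alleles the coding regions were replaced, by a loxP site in Rtp1 and by a puromycin resistance cassette in Rtp2.

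Beating cilia cover the respiratory epithelium that borders the olfactory epithelium in the nose, so a dissection of whole mucosa holds some of it. Their core is a ring of microtubule pairs around a central pair. Dynein arms on the ring slide the microtubules, radial spokes and central apparatus set the rhythm, and rulers set the spacing. The nexin-dynein complex is a further part of this core. Cilia of mammalian olfactory sensory neurons (OSNs) share the central pair but lack the dynein arms and do not beat. In bulk tissue, fewer ciliated cells and less RNA per cell cannot be told apart.

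The starting question was how much of this RNA each dissection held and whether it differed between genotypes. Of the 37 motile cilia genes, 35 did not pass the test, and the median log2 fold change (RTP1,2DKO over wild-type) was -0.23 over the 37 genes against 0.02 over all genes tested. Spef2 and Ccdc40 were called lower, by 0.84 and 0.56 on the log2 scale, and no motile cilia gene was called higher. Of all genes tested, 3.15% were called lower and 0.46% higher, so these counts are near the background. The Ccdc40 call was lost in some fits that left out a mouse. The 8 mature OSN markers examined beside them had a median log2 fold change of -1.12. The longest genes, most of them dynein heavy chains, all had their highest wild-type level in mouse 1.

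Total counts were between 31125410 and 41636996 per mouse. Rtp1 lay between 13543 and 25301 normalized counts in the wild-type and between 85.5 and 109 in RTP1,2DKO, and Rtp2 between 7157 and 9510.5 and between 26.2 and 58.0, so each library carried its labelled genotype. A normalized count is the gene's estimated count divided by the size factor of the mouse. The motile cilia genes together took between 0.125% and 0.193% of all counts of a mouse. Of the 37, 36 had a mean of at least 10 normalized counts, the exception being Spag6. Of the 7 markers chosen for respiratory secretory cells, 6 had counts. Bpifa1, the most abundant of them, had 110583 ± 19133 (normalized count, SD, n = 3 wild-type mice) and 104876 ± 13946 (SD, n = 3 RTP1,2DKO mice). Whether other cells of the mucosa made this RNA was not tested. Scgb1a1, a club cell secretoglobin, was at 0 in all mice.

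Genes of motile cilia are known targets of RFX transcription factors, which bind the X-box, an inverted repeat with arms like GTTGCC. In RefSeq promoter windows (GRCm38.p6, 250 bases before to 50 after the gene start), the 6 letters GTTGCC occurred on either strand in 17 of the 31 motile cilia genes with a window, or 54.8%, against 14.1% of all 27025 genes with one. Of the 31, 4 held more than 1 match, against 1.17% of all genes with a window. Neither the full repeat (GTTNCC, any 2 bases, GGNAAC) nor its stricter form that starts with GTTGCC, which the former includes, occurred in any of the 31 windows (0.529% and 0.355% of all genes). The forkhead letters TGTTTAC, the kind of sequence FOXJ1 recognises, were found in 1 of them, Ak7, against 4.05% of all genes. Matches are descriptions of letters and not binding sites. The windows below are shown because they carry this shared letter pattern in genes of different parts of the axoneme, among them Spef2 with the largest fall, and in the regulator Rfx2. Each is written 5′ to 3′ on the strand of the gene, with GTTGCC or its reverse complement in capitals.
Spef2, chr15:9748839-9748880, minus strand: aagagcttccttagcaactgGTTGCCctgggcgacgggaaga
Hydin, chr8:110266944-110266989, plus strand: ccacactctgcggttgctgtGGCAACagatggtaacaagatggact
Spag16, chr1:69826839-69826892, plus strand: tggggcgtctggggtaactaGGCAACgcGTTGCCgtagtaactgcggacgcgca
Dnaic2, chr11:114727373-114727418, plus strand: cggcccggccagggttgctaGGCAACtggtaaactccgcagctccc
Drc1, chr5:30281362-30281407, plus strand: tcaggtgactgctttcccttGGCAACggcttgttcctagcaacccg
Tekt1, chr11:72361872-72361937, minus strand: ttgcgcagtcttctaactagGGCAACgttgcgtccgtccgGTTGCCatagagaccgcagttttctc
Rfx2, chr17:56831099-56831144, minus strand: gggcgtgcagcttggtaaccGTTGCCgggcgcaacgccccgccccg
In Spag16 and Tekt1 the 6 letters stood on opposite strands within the window shown. In both, GGCAAC came before GTTGCC, the reverse of the order of the arms in the full repeat. Ccdc40, which also fell, had no match in its window, nor had Ccdc39 or Dnah5.

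None of the 5 regulators that start or steer the ciliation program passed the test. Foxj1, the forkhead factor that switches on genes of motile cilia, had normalized counts of 1418, 1316 and 1361 (wild-type, by mouse number) and of 1101, 1277 and 1133 (RTP1,2DKO). Every RTP1,2DKO mouse lay below every wild-type mouse, although the log2 fold change of -0.22 (standard error, SE, 0.12) was not past the threshold of 0.05 on the adjusted p (0.523, edgeR quasi-likelihood). Mcidas, the multicilin that with E2F factors starts the making of many basal bodies, had 46.5, 67.7 and 65.1 normalized counts in the wild-type and 80.1, 91.6 and 60.8 in RTP1,2DKO, and the groups overlapped. Ccno, the cyclin O needed for that step, ranged from 56.9 to 116 normalized counts in the wild-type and from 82.2 to 106 in RTP1,2DKO, a range inside that of the wild-type. Ccdc67, which RefSeq gives as an older symbol of Deup1 and which belongs to the list of further genes below, had 180.2 ± 37.7 (normalized count, SD, n = 3 wild-type mice) and 173 ± 26.2 (SD, n = 3 RTP1,2DKO mice).

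Rfx3 was the most abundant motile cilia gene by counts. It had 17941, 17460.1 and 10956 normalized counts in the wild-type and 16456, 11683 and 13355 in RTP1,2DKO, so that wild-type mouse 3 lay below all the others and the groups overlapped (log2 fold change -0.16, SE 0.19). Per length, Rfx3 had 52.5 ± 16.3 FPKM (SD, n = 3 mice; counts scaled by effective transcript length and by the total count) in the wild-type, whereas its relative Rfx2 had 3.34 ± 0.234. Rfx3 and Rfx2 were the regulators counted with more than 1 transcript, and only for Rfx2 did the split between transcripts move widely. Its 3278-base transcript took between 19.7% and 100% of the Rfx2 estimate of a mouse, and since the transcripts differ by few bases in length this split may not be resolved by the reads. The summed Rfx2 count stayed between 267 and 402.

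**Figure D1:**
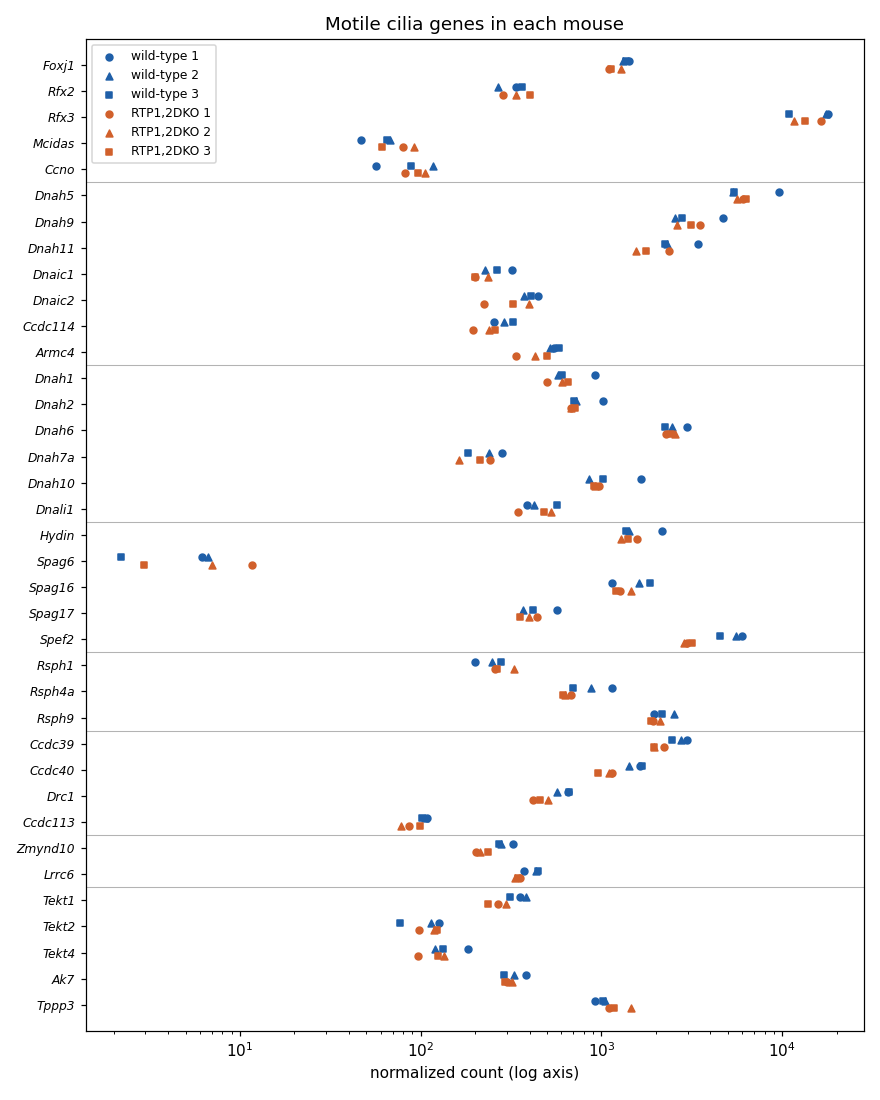
Normalized count (x axis, logarithmic) of each of the 37 motile cilia genes (rows) in every mouse, with wild-type mice in blue and RTP1,2DKO mice in orange and grey lines between functional groups. Spef2 and Ccdc40 show separate groups, and the dynein heavy chains show a wild-type mouse 1 (blue circle) to the right of the other mice.

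Among the outer arm genes, 7 of 7 had a log2 fold change below 0 and none was called. Dnah5, a heavy chain motor of the outer arm, had 9558, 5369 and 5416 normalized counts in the wild-type and 6038, 5587 and 6333 in RTP1,2DKO. The other wild-type mice lay below all RTP1,2DKO mice, and mouse 1 above them. Dnah9, the heavy chain of the outer part of the cilium, was also highest in wild-type mouse 1, with 4700.4, 2563 and 2787 in the wild-type against 3511, 2615 and 3127. Without wild-type mouse 1 the log2 fold change went from -0.18 to 0.15 for Dnah5 and from -0.12 to 0.21 for Dnah9. Dnah11, the heavy chain found nearer the base of respiratory cilia, had 3405, 2299 and 2258 normalized counts in the wild-type and 2371, 1548 and 1760.0 in RTP1,2DKO (log2 fold change -0.49, SE 0.19, edgeR adjusted p = 0.273). With the replicate number as a block, its edgeR adjusted p was 0.0234, whereas without wild-type mouse 1 the log2 fold change was -0.27 and the edgeR adjusted p 0.644.

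Among the shorter outer arm genes, wild-type mouse 1 was the highest wild-type mouse for Dnaic1 and Dnaic2 but not for Armc4 or Ccdc114. Armc4, which docks the outer arm, had 544, 522 and 585 normalized counts in the wild-type and 335, 431 and 501 in RTP1,2DKO, with no overlap between the groups (log2 fold change -0.38, SE 0.17, edgeR adjusted p = 0.379). Dnaic2, an intermediate chain, had 409 ± 34.9 (SD, n = 3 wild-type mice) and 316 ± 87.4 (SD, n = 3 RTP1,2DKO mice), with RTP1,2DKO mouse 2 inside the wild-type range. For Dnaic1 and the docking gene Ccdc114 the log2 fold changes were -0.36 and -0.32.

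None of the 6 inner arm genes passed the test (edgeR), their log2 fold changes lay between -0.34 and -0.02, and all 6 had overlapping groups. Without wild-type mouse 1 the log2 fold change was -0.0045 for Dnah10, -0.0093 for Dnah1, -0.051 for Dnah2, -0.042 for Dnah7a and 0.044 for Dnah6. Dnah10 had 1661, 854 and 1014 normalized counts in the wild-type and 968, 919 and 904 in RTP1,2DKO. Wild-type mouse 2 lay below all RTP1,2DKO mice and wild-type mouse 1 far above them. Dnah6, the most abundant inner arm heavy chain, had 2548 ± 369.8 normalized counts (SD, n = 3 mice) and 2417 ± 145 (SD, n = 3). Dnali1, a light intermediate chain of the inner arm, had 458 ± 95.8 and 450.5 ± 94.8. Dnah7a shares much of its sequence with Dnah7b, and only 45.8% of its 31-base words are absent from every other gene of the annotation, which leaves its 234 ± 49.8 and 205 ± 39.5 normalized counts uncertain. For each of the other 36 genes at least 95.3% of these words were its own.

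In the central apparatus, Spef2 fell by 0.84 on the log2 scale (SE 0.13, edgeR adjusted p = 0.0021). Spef2, on chromosome 15 from 9578193 to 9748868 (GRCm38), encodes a protein of the central pair needed for sperm tails and airway cilia. It had 5969.6, 5567 and 4541 normalized counts in the wild-type and 2967, 2846 and 3179.9 in RTP1,2DKO. The lowest wild-type mouse stood well above the highest RTP1,2DKO mouse, and the call held in each fit that left out a mouse, with log2 fold changes from -0.94 to -0.75. The 4247-base transcript carried 88.3% of its count on average. That transcript had 4796 ± 683 (normalized count, SD, n = 3 wild-type mice) and 2613 ± 164 (SD, n = 3 RTP1,2DKO mice), while the 5565-base transcript had 546 ± 62.2 and 367 ± 44.9, so both means were lower.

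Other central apparatus genes did not pass the test. Hydin, whose loss stops ciliary bending, had 2170.2, 1427 and 1372 normalized counts in the wild-type and 1563, 1275 and 1407 in RTP1,2DKO, with wild-type mouse 1 alone above the rest. Spag16 showed the opposite order in the wild-type, with 1139.9, 1607 and 1845 normalized counts, and 1269.8, 1461 and 1196 in RTP1,2DKO. Spag17 had 451 ± 102 (SD, n = 3 mice) and 398 ± 41.9 (SD, n = 3). Spag6 was near the lower end with 2.21 to 11.6 normalized counts per mouse, and its log2 fold change of 0.49 had an SE of 0.93. Its close relative Spag6l, named here after its values were seen, had 268 ± 33.3 and 282 ± 36.5.

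Radial spoke heads, which pass signals between the central pair and the arms, gave mixed values. Rsph4a had 1145, 872 and 695 normalized counts in the wild-type and 674, 631 and 612 in RTP1,2DKO, without overlap (log2 fold change -0.50, SE 0.17, edgeR adjusted p = 0.188). Without wild-type mouse 3 it passed, at -0.66 and an edgeR adjusted p of 0.0397, whereas without wild-type mouse 1 it was at -0.29 with an edgeR adjusted p of 0.53. Rsph9, the motile cilia gene with the highest level per length at 166 ± 33.9 FPKM (SD, n = 3 wild-type mice) and 144 ± 11.9 (SD, n = 3 RTP1,2DKO mice), had a log2 fold change of -0.17. Rsph1 had 241 ± 39.9 and 283 ± 37.8 normalized counts, a log2 fold change of 0.23.

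The genes of the rulers and the nexin-dynein complex were the group with the lowest median, -0.43 over 4 genes. In all 4 every RTP1,2DKO mouse lay below every wild-type mouse, as in 9.24% of all genes tested. Ccdc40, on chromosome 11 from 119228572 to 119265238 (GRCm38), encodes with Ccdc39 the molecular ruler of the axoneme. It had 1637, 1428 and 1665 normalized counts in the wild-type and 1149, 1104 and 960.3 in RTP1,2DKO, and fell by 0.56 on the log2 scale (SE 0.12, edgeR adjusted p = 0.0222). The call was lost in 4 of the 6 fits that left out a mouse (wild-type mouse 1 or 3, RTP1,2DKO mouse 2 or 3), with log2 fold changes between -0.62 and -0.49 over the 6 fits and adjusted p-values by edgeR of 0.0525, 0.0687, 0.0642 and 0.129 in those 4. Its partner Ccdc39 had 2976, 2768 and 2469.7 normalized counts and 2214, 1959.5 and 1945, and its log2 fold change of -0.42 did not pass (edgeR adjusted p = 0.0874). With the replicate block it passed (edgeR adjusted p = 0.0442), and DESeq2's Wald test gave an adjusted p of 0.0264. Drc1, a core protein of the nexin-dynein complex, had 626 ± 50.7 (SD, n = 3 mice) and 459.6 ± 44.9 (SD, n = 3), a log2 fold change of -0.44. The coiled-coil gene Ccdc113 had 105 ± 3.63 and 87.7 ± 10.7.

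Zmynd10 and Lrrc6, whose proteins work together to assemble dynein arms in the cytoplasm, each had groups that did not overlap. In both, every RTP1,2DKO mouse lay below every wild-type mouse, as in 9.24% of all genes tested, and neither passed the test. Zmynd10 had 324, 279 and 271 normalized counts in the wild-type and 202, 214 and 235 in RTP1,2DKO (log2 fold change -0.42, SE 0.17, edgeR adjusted p = 0.313). Lrrc6 had 373, 435 and 445 against 355, 333 and 346 (log2 fold change -0.28, SE 0.15, edgeR adjusted p = 0.536). Tekt1, a tektin that runs along the microtubules of the ring, had 355, 385 and 312 against 268, 296 and 236, also apart, with a log2 fold change of -0.39 (SE 0.17, edgeR adjusted p = 0.358). The tektins Tekt2 and Tekt4 overlapped between groups, with log2 fold changes of 0.09 and -0.29, as did the adenylate kinase gene Ak7 at -0.13. Tppp3, a tubulin-binding protein, ran the other way, with 916, 1046 and 1021 normalized counts in the wild-type and 1105, 1453 and 1167 in RTP1,2DKO (log2 fold change 0.32, SE 0.14, edgeR adjusted p = 0.356).

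Counted over the list, 2 of 37 motile cilia genes were called lower in RTP1,2DKO, where 3.15% of the 22152 genes tested were called lower, and 0 were called higher, where 0.46% were. That share is near the background. With the replicate block, which pairs mice by their numbers, 4 were called lower, where 3.68% of all genes were, and DESeq2's Wald test called 3 lower and 0 higher, where 4.03% of all genes were called lower. At an unadjusted p under 0.05 by edgeR, 9 were lower, where 7.17% of all genes were, and 1, Tppp3, was higher, where 4.58% were. In 11 genes every RTP1,2DKO mouse lay below every wild-type mouse, as in 9.24% of all genes, and in 1 every RTP1,2DKO mouse lay above, as in 7.17%. The log2 fold change was below 0 in 30 of the 37, against 47.4% of all genes tested.

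**Figure D2:**
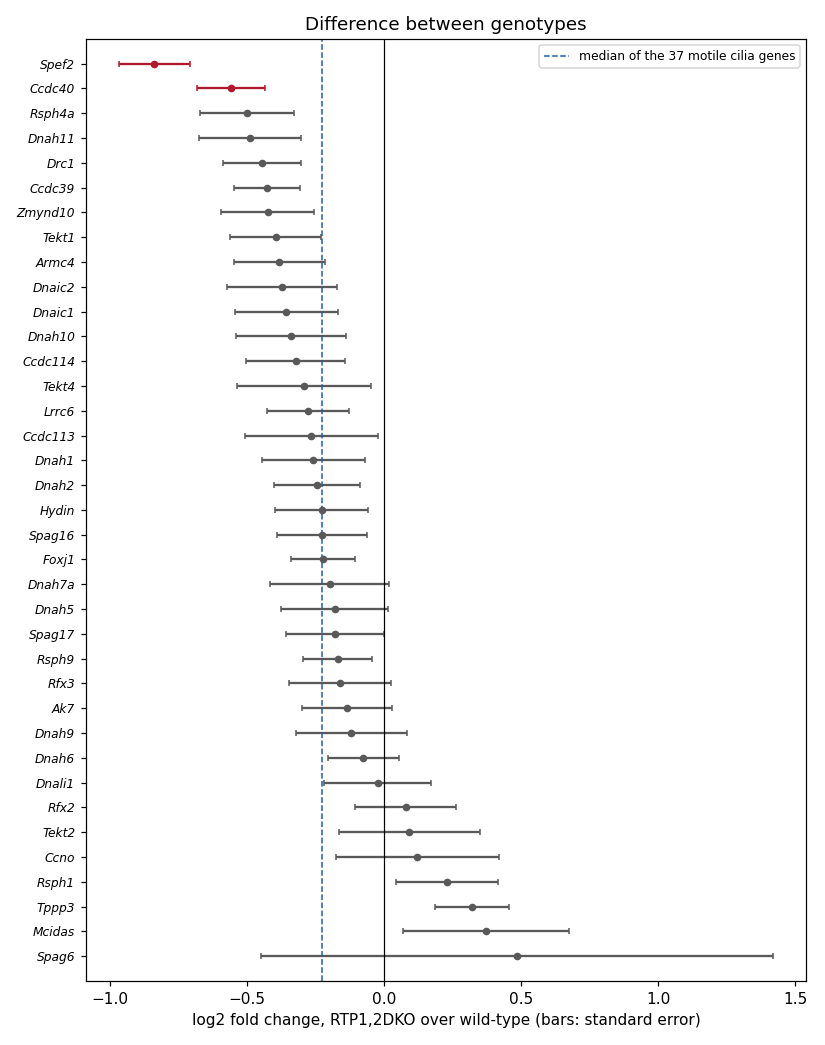
Log2 fold change of each motile cilia gene (x axis, RTP1,2DKO over wild-type) with its SE as a bar, ordered from lowest to highest and red where the adjusted p-value was under 0.05. Of the 37 genes, 30 lie left of 0, and the dashed line marks their median of -0.23.

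Long and short motile cilia genes differed in how the mice were ordered. Of the 37 genes, 10 have transcripts longer than 9000 bases, namely Rfx3, Hydin and the 8 dynein heavy chains, a division made after the values were seen. Wild-type mouse 1 had the highest wild-type count in 10 of these 10 genes, and in 12 of the other 27. In that mouse the long genes lay 0.22 to 0.56 above the wild-type mean on the log2 scale, with a median of 0.40. The median was -0.18 in wild-type mouse 2 and -0.21 in wild-type mouse 3. Part of this order was common to the library. Over the 442 genes of any kind with transcripts over 9000 bases and a mean of at least 50 normalized counts, the median deviation was 0.20, -0.06 and -0.14 in the same mice. The median length of those 442 genes was 10764 bases, whereas Hydin and the 8 dynein heavy chains were longer, from 12272 to 15783 bases. At the other end, 904 genes of 1000 bases or less had medians of -0.18, 0.09 and 0.09.

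RTP1,2DKO mouse 1 leaned the same way, with a median deviation of 0.16 over all genes longer than 9000 bases and 0.10 over the 10 long motile cilia genes. Muc5b, a mucin of secretory cells with a transcript of 14963 bases, did not follow this order, with wild-type values of 13682, 14584 and 17059 by mouse number. Whether RNA quality took part in the order of the mice was not tested. In the 18 genes of 3000 bases or less the order was another one, with RTP1,2DKO mouse 1 lowest of its group in 12 and RTP1,2DKO mouse 2 highest in 12.

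**Figure D3:**
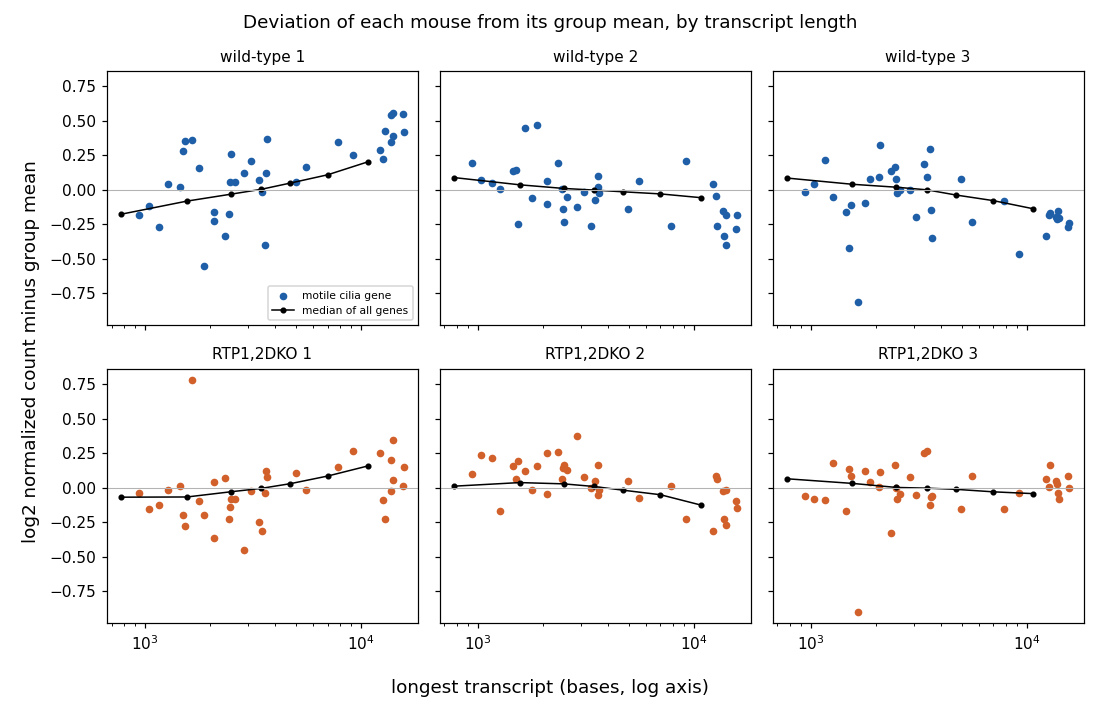
Deviation of each mouse from the mean of its genotype (y axis, log2 normalized count) against the longest transcript of the gene (x axis, bases, logarithmic), with a panel per mouse, coloured points for motile cilia genes and a black line for the median of all genes in 7 length classes. In wild-type mouse 1 the line rises from -0.18 to 0.20, and the motile cilia genes over 9000 bases lie higher than its last point. That point stands at 10764 bases, and most of these genes are longer.

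As a reading of how much RNA of the listed genes each dissection held, normalized counts summed to 67426, 56328 and 48955 (wild-type, by mouse number) and to 51266, 45566 and 47821 (RTP1,2DKO). The sums take in RNA of these genes from any cell type of the mucosa, and the part from ciliated cells was not tested. Wild-type mouse 3 lay inside the RTP1,2DKO range. The mean sum of RTP1,2DKO was 0.838 of that of the wild-type, and 0.816 with Rfx3 left out. The spread of the wild-type sums came mainly from the long genes, which summed to 44619, 33965 and 27531. Of these sums, Rfx3 alone gave 17941, 17460 and 10956. The 27 shorter genes summed to 22807, 22363 and 21425. In RTP1,2DKO these 27 summed to 16671, 17929 and 16935, below all wild-type mice. Spef2 alone made up much of that step. Without it, the shorter genes summed to 16837, 16796 and 16883 in the wild-type and to 13704, 15083 and 13755 in RTP1,2DKO, which still did not overlap. The order of the mice depended on the scale. Summed FPKM were 536, 614 and 470 in the wild-type, so that mouse 2 was highest, and 494, 476 and 426 in RTP1,2DKO. On the FPKM scale the ratio of the summed levels was 0.862.

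The list was set beside 96 further genes of motile cilia, of which 83 are in the files and 82 had counts. Of these, 2 were called lower and 0 higher, where 3.15% and 0.46% of all genes were, with a median log2 fold change of -0.20. At an unadjusted p under 0.05 by edgeR, 22 were lower and 1 higher, where 7.17% and 4.58% of all genes were. Both called genes had groups far apart. Cfap69, a ciliary protein that is also found in the cilia of OSNs, had 14187, 13124 and 12007 normalized counts in the wild-type and 7841, 6748 and 6834 in RTP1,2DKO (log2 fold change -0.88, SE 0.12, edgeR adjusted p = 0.00105). Iqub, a radial spoke protein, had 1112, 1171 and 1159.9 against 667, 628 and 712 (log2 fold change -0.78, SE 0.12, edgeR adjusted p = 0.00225). Dynlrb2, a dynein light chain, and Lrrc48, the nexin-dynein complex gene now called Drc3, were highest per length beside Cfap69, at 215 ± 56.7 and 132 ± 30.4 FPKM (SD, n = 3 wild-type mice), with log2 fold changes of 0.29 and -0.17.

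The genes of intraflagellar transport and the BBSome, which build every kind of cilium including the sensory cilia of OSNs, were set beside them too. None of their 31 was called by edgeR's quasi-likelihood test, where 3.15% of all genes were called lower. At an unadjusted p under 0.05 by that test, 8 were lower, where 7.17% of all genes were. In 10 every RTP1,2DKO mouse lay below every wild-type mouse, as in 9.24% of all genes. Their median log2 fold change was -0.18. Their summed level in RTP1,2DKO was between 83.2% and 85.6% of the wild-type mean, against 79.1% to 89.0% for the motile cilia genes.

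Markers of mature OSNs were lower in RTP1,2DKO. In all 8 every RTP1,2DKO mouse lay below every wild-type mouse, as in 9.24% of all genes, and 7 were called lower, where 3.15% were. Their summed level lay between 46.5% and 50.4% of the wild-type mean in RTP1,2DKO and between 91.7% and 107% in the wild-type. Stoml3, a stomatin of olfactory cilia, had the largest change at -2.00 on the log2 scale, and Gng13, a G protein subunit, was the marker not called, at -0.76. What part OSNs had in the lower levels of Spef2 and Ccdc40 was not tested. Sustentacular markers had a median log2 fold change of -0.05 over 6 genes and respiratory secretory markers of -0.02 over 6 with counts, and none was called or reached an unadjusted p under 0.05 by edgeR's test. The 5 blood markers had a median log2 fold change of 0.76 and none was called. At an unadjusted p under 0.05 by edgeR's test, 4 were higher, where 4.58% of all genes were. Their sum lay between 64.2% and 131% of the wild-type mean in the wild-type and between 113% and 220% in RTP1,2DKO, and their part in the result was not tested. Summed, the respiratory secretory markers lay between 93.7% and 110% of the wild-type mean in wild-type mice and between 81.6% and 104% in RTP1,2DKO. Wild-type mouse 1 was the highest in this sum too, through Bpifa1 at 132346 normalized counts, but the lowest for Reg3g, an antibacterial lectin of airway epithelium, at 6295 against 11351 and 13621.

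**Figure D4:**
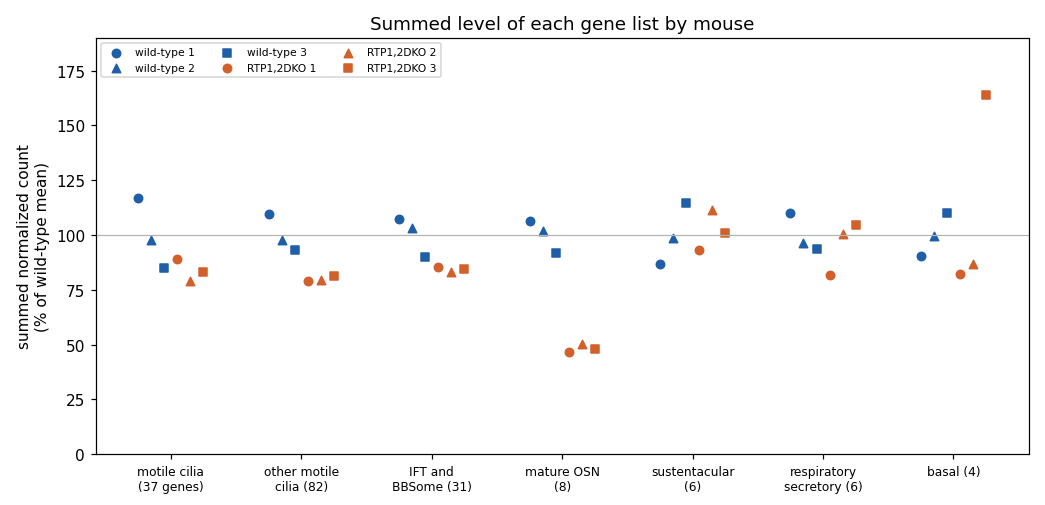
Summed normalized count of each gene list (x axis) in every mouse as a percentage of the wild-type mean (y axis), with wild-type mice in blue and RTP1,2DKO mice in orange. The motile cilia sums of RTP1,2DKO mice lie between 79.1% and 89.0%, those of mature OSN markers between 46.5% and 50.4%, and basal cell markers stand apart in RTP1,2DKO mouse 3 at 164%.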

How the data were processed

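Whole olfactory mucosa of 6 mice was sequenced from stranded libraries. The authors assigned reads with kallisto (mm10 per the labels; its version is not given in the sources used here) to UCSC transcripts with extended OR annotations, and deposited estimated counts per transcript and TPM. The deposited TPM were not used. The deposited transcript lengths served for other values: FPKM from estimated counts, effective lengths and total counts. Estimated counts were summed per gene and rounded.

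Genes with a count of 1 or more in any mouse were fitted with edgeR 4.0.16 (quasi-likelihood test) and DESeq2 1.42.0 median-of-ratios size factors in R 4.3.3, with Benjamini-Hochberg adjustment at 0.05 over all genes. Standard errors were derived from the F statistic. Positions and 31-base words came from GENCODE M21 (GRCm38), promoters from RefSeq. The genes and lists were chosen with earlier results of these data known. Any listed gene could be named, and of other lists those past the threshold or highest per length. The labels number the mice 1 to 3 in both genotypes. Deviations of same-numbered mice from their group means correlated at 0.139, 0.179 and 0.103 over 18133 genes with a mean of at least 10. Those of mice with unlike numbers correlated between -0.219 and 0.0934. The numbers were taken to pair mice in the replicate block only, and the main fit had no pairing. Fits were tested on simulated data. Alternatives were TMM, a low-count filter, DESeq2, the replicate block and each mouse left out. Leaving out both replicate 1 mice and an offset by transcript length were added after seeing the data.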

Additional observations from a re-analysis of the deposited data

How the results depend on the processing

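The count of motile cilia genes called lower stayed within 1.5 times of 2, and the median below 0, under TMM, the low-count filter, DESeq2's Wald test and the length offset. With the replicate block 4 were called lower, where 3.68% of all genes were, with Dnah11 and Ccdc39 added and no other call changed. Without both replicate 1 mice 1 was called lower and the median log2 fold change was -0.11; the cause was not tested. With each mouse left out, 1 to 2 were called lower and the median ranged from -0.32 to -0.11, the latter without wild-type mouse 1. The share of all genes called was not worked out for fits with fewer mice. A smaller count in those fits therefore cannot be told apart from a loss of power. Log2 fold changes that changed sign with a mouse left out ranged from -0.059 to 0.19 for Rfx2, -0.11 to 0.39 for Ccno, -0.32 to 0.15 for Dnah5, -0.28 to 0.21 for Dnah9, -0.16 to 0.044 for Dnah6, -0.15 to 0.16 for Dnali1, -0.35 to 0.016 for Hydin, -0.019 to 0.85 for Spag6, -0.31 to 0.016 for Spag17 and -0.089 to 0.24 for Tekt2. Without both replicate 1 mice they were -0.016 for Ccno, 0.14 for Dnah5, 0.10 for Dnah9, 0.094 for Dnah1, 0.087 for Dnah6, 0.028 for Dnali1 and 0.036 for Tekt4, and with the length offset 0.017 for Dnah6. Spag6, with few counts, had the widest standard error of the motile cilia genes.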
